A study of Homo sapiens with 6 samples.

Results

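The cytosolic heat shock genes encode the chaperones that fold new and damaged proteins in the cytosol and nucleus. The 10 genes HSPA1A, HSPA1B, HSPA8, HSPH1, HSP90AA1, HSP90AB1, DNAJB1, DNAJA1, HSPB1 and CHORDC1 were taken by name from a table of 42822 genes or merged gene entries. Of these, 9 had an entry of their own name and all 9 passed the filter on low values, while HSPA1B, the near-identical neighbour of HSPA1A, was not analysed here. RNA was measured that came down with thymidylate synthase (TS), the enzyme that makes dTMP and that also binds RNA, in an RNA immunoprecipitation with an anti-TS antibody (TS-RIP). The matched control (RIPctr) was the RNA that stuck to antibody-free Protein A/G beads while the same lysate was pre-cleared. There were 6 libraries, TS-RIP and RIPctr of cells treated with RTX, with 5FdUR, or not treated (NT).

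RTX, raltitrexed, is a folate analogue that inhibits TS, and 5FdUR, 5-fluoro-2'-deoxyuridine, is a nucleoside whose phosphorylated form binds TS covalently. RTX was given at 100 nM and 5FdUR at 20 µM, both for 48 h, so the drugs were compared at different doses. All groups, the untreated cells included, were HCT116 cells, a human colon adenocarcinoma line deficient in mismatch repair (MMR), which also expressed UGI, an inhibitor of uracil-DNA glycosylase. Cytoplasmic and nuclear extracts were combined before the immunoprecipitation. As far as the labels tell, each treatment was 1 culture with 1 library per fraction, so RTX, 5FdUR and NT were compared by size without a test, while the 3 treatments served as 3 pairs for the test of TS-RIP against RIPctr. In bulk RNA a change in the level per cell and a change in the share of cells that express a gene cannot be told apart.

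Libraries held 10215667 to 11657293 fragments in TS-RIP and 7051104 to 9269725 in RIPctr. The values are fragments per gene, scaled between libraries and not divided by transcript length, and are called scaled fragments here. The colon epithelial genes EPCAM, CDH1, KRT8, KRT18 and KRT19 were read at 48214 scaled fragments or more in each library. CDX2 was at 10629 to 24056 and KRT20 at 935 to 2891, whereas VIL1 and CDX1 had at most 681 and were at 0 in both NT libraries. Of 14 markers of fibroblasts, blood, endothelium and liver, 2 (COL1A1 and VWF) had a mean above 500, and CD3E and HBB were at 0 throughout. COL1A1, at 8970 to 24734 scaled fragments, was read at about the level of CDX2 and above KRT20. VWF was at 1395 to 3570.

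The heat shock response is driven mainly by the transcription factor HSF1, which on stress forms trimers that bind heat shock elements, arrays of inverted GAA and TTC units, in the promoters of chaperone genes. Its targets work as a relay. J-domain proteins of the HSP40 class hand unfolded clients to HSP70, nucleotide exchange factors such as HSP110 reset HSP70, and HSP90 with its cochaperones completes the folding of kinases, receptors and other signalling proteins. Small heat shock proteins hold unfolded proteins in solution. Some members, such as HSPA8 and HSP90AB1, are made in unstressed cells, and others, such as HSPA1A, HSPA1B, DNAJB1 and HSP90AA1, are the stress-inducible forms. Cancer cell lines, those of the colon among them, commonly carry much HSP90.

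The promoters were searched for the element as 3 inverted units of which each is 2 bases from the next (GAA, TTC and GAA, or TTC, GAA and TTC), on both strands, in RefSeq windows (GRCh38.p14) of 250 bases before to 50 bases after each start site. All 10 genes matched a window, several of them more than 1. The element was found in 5 of the 10 genes, against 166 of all 27305 genes with a window (0.608%), and in 172 of 35116 windows overall (0.490%). The stretches that hold it are shown because they tell the genes with a perfect element from those without, and they are written 5′ to 3′ on the strand of the gene with the element in capitals. HSPB1 is added as a gene whose values changed with both drugs and whose window had no match.
CHORDC1, positions -80 to -18, chr11:90223067-90223129, minus strand: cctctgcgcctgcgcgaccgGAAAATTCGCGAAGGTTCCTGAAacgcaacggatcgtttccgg
HSPA8, positions -250 to -198, chr11:123062334-123062386, minus strand: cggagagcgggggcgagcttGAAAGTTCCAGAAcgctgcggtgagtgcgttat
HSPA8, positions -75 to -23, chr11:123062159-123062211, minus strand: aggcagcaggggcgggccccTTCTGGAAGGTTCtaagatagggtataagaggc
HSP90AA1, positions -108 to -56, chr14:102087100-102087152, minus strand: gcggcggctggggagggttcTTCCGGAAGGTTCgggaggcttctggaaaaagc
HSP90AB1, positions -185 to -80, chr6:44247758-44247863, plus strand: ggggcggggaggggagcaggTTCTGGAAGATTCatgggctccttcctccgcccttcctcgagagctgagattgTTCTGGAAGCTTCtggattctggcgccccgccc
DNAJA1, positions -5 to 24, chr9:33025268-33025296, plus strand: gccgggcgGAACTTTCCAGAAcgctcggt
HSPB1, positions -100 to -1, chr7:76302573-76302672, plus strand: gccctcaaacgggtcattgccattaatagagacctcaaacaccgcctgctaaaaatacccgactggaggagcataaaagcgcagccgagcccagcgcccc

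In CHORDC1, 3 elements overlapped and formed 1 unbroken array of 23 bases between positions -60 and -38. HSPA8 and HSP90AB1 each had 2 separate elements, HSP90AA1 had 1 upstream of the start, and in DNAJA1 the element lay just past the start, from 4 to 16. For HSP90AA1 and HSP90AB1, which have 2 and 3 windows, the element was in 1 window each. The windows of HSPA1A, HSPA1B, HSPH1, DNAJB1 and HSPB1 had no match to these letters, which says nothing about imperfect elements or about sites further away.

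Levels between genes were compared as scaled fragments per nucleotide of the canonical GENCODE 44 transcript. Both HSP90 genes were at the top. HSP90AA1 had on average 2935 scaled fragments per nucleotide and HSP90AB1 2707, which put them in places 2 and 3 among 18169 protein-coding genes, and HSPA8 with 1600.4 per nucleotide was in place 14. HSPB1 followed at 339 per nucleotide (place 116), then DNAJA1 at 141 and DNAJB1 at 135, HSPH1 at 61.9 and CHORDC1 at 57.1. HSPA1A was last with 1.94 per nucleotide, in place 9734.

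The order held only in part against the spread over the 6 libraries. The ranges per nucleotide overlapped between HSP90AA1 (1809 to 3561) and HSP90AB1 (1932 to 3472), between each of these and HSPA8 (1292 to 2159), between DNAJA1 and DNAJB1, and between HSPH1 and CHORDC1. Within libraries both HSP90 genes were above HSPA8 in 6 of 6, whereas HSP90AA1 was above HSP90AB1 in 4 of 6. HSPB1, at 175 to 532 per nucleotide, lay just above the highest DNAJA1 library (174). Together the 9 genes took 2.53% and 2.38% of all scaled fragments in TS-RIP and RIPctr of RTX cells, 2.15% and 1.85% in TS-RIP and RIPctr of 5FdUR cells, and 1.54% and 2.19% in TS-RIP and RIPctr of NT cells. The TS-RIP library of NT cells had the lowest share and that of RTX cells the highest.

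**Figure D1:**
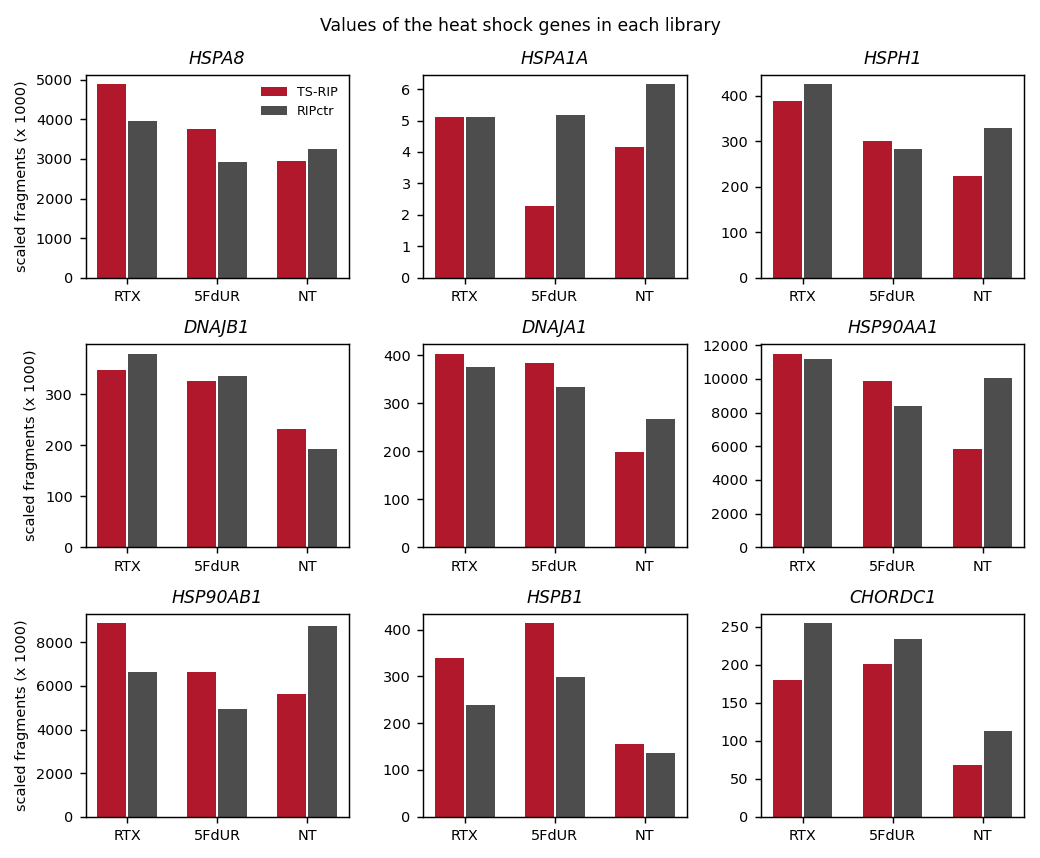
Scaled fragments (in units of 1000, on linear axes that start at 0 and differ between panels) of the 9 genes in each library, with TS-RIP as red bars and RIPctr as grey bars for RTX, 5FdUR and NT. Each bar is 1 library without replicate; for HSP90AA1, HSP90AB1, HSPA8, DNAJA1 and HSPH1 the TS-RIP bar of NT lies below its RIPctr bar, and for HSPB1 and CHORDC1 both NT bars lie below all 4 drug bars.

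The HSP70 class was examined first. HSPA8 (ENSG00000109971, chromosome 11, 123057489 to 123062335), the constitutive cytosolic HSP70 that also uncoats clathrin vesicles, had 4889060 and 3952900 scaled fragments in TS-RIP and RIPctr of RTX cells, 3764370 and 2925590 in TS-RIP and RIPctr of 5FdUR cells, and 2946610 and 3261210 in TS-RIP and RIPctr of NT cells. Both drug TS-RIP libraries were above their controls and the NT one was below. The log2 ratio of TS-RIP over RIPctr, with 100 added to each value, was 0.31 [0.29 to 0.33] in RTX, 0.36 [0.34 to 0.39] in 5FdUR and -0.15 [-0.17 to -0.12] in NT. Brackets hold 95% Clopper-Pearson intervals on the fragments. They address counting error only, not the spread between cultures or immunoprecipitations. Even for counting error they may be too narrow, since PCR copies are not independent molecules. Over the 3 pairs the mean ratio was 0.17 (SE 0.20, limma adjusted p = 0.63).

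HSPA1A (ENSG00000204389, chromosome 6, 31815543 to 31817946), the main stress-inducible HSP70, was read at 23 to 54 fragments per library. Its values were 5107 and 5102 scaled fragments in TS-RIP and RIPctr of RTX cells, 2292 and 5178 in TS-RIP and RIPctr of 5FdUR cells, and 4165 and 6155 in TS-RIP and RIPctr of NT cells. Only the TS-RIP library of 5FdUR cells stood apart, with a ratio of -1.14 [-1.99 to -0.39]. The mean ratio was -0.56 (SE 0.25, limma adjusted p = 0.17). These values are uncertain: 72.4% of the 100-nt windows of the HSPA1A transcript also occur in transcripts of other genes, HSPA1B among them. The study kept reads with a mapping quality of at least 1, called uniquely mapped in its methods, and then used multi-read correction. Reads which fit several of these genes may be missing from the value of HSPA1A. How many were lost was not tested. For the other 8 genes that share was between 0% and 6.05%, the highest being HSPB1, which shares sequence with a pseudogene.

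HSPH1 (ENSG00000120694, chromosome 13, 31134973 to 31162388), an HSP110 that acts as an exchange factor of HSP70, had 387860 and 425232 scaled fragments in TS-RIP and RIPctr of RTX cells, 301182 and 282761 in TS-RIP and RIPctr of 5FdUR cells, and 222451 and 329632 in TS-RIP and RIPctr of NT cells. The NT pair was the farthest apart, with TS-RIP below RIPctr. Ratios were -0.13 [-0.20 to -0.07] in RTX, 0.09 [0.01 to 0.17] in 5FdUR and -0.57 [-0.64 to -0.49] in NT (mean -0.20, SE 0.13, limma adjusted p = 0.35).

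The J-domain genes DNAJB1 and DNAJA1, whose HSP40 proteins deliver clients to HSP70 and stimulate its ATPase, differed from each other. DNAJA1 (ENSG00000086061, chromosome 9, 33025273 to 33039907) had 403085 and 376076 scaled fragments in TS-RIP and RIPctr of RTX cells, 383105 and 333044 in TS-RIP and RIPctr of 5FdUR cells, and 198056 and 267512 in TS-RIP and RIPctr of NT cells. DNAJB1 (ENSG00000132002, chromosome 19, 14514769 to 14529308), the stress-inducible HSP40, had 348447 and 379436 in TS-RIP and RIPctr of RTX cells, 325798 and 335361 in TS-RIP and RIPctr of 5FdUR cells, and 232652 and 192171 in TS-RIP and RIPctr of NT cells. In NT cells DNAJA1 was thus lower in TS-RIP than in RIPctr and DNAJB1 was higher.

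Ratios of DNAJA1 were 0.10 [0.03 to 0.17] in RTX, 0.20 [0.13 to 0.28] in 5FdUR and -0.43 [-0.52 to -0.35] in NT (mean -0.04, SE 0.13, limma adjusted p = 0.87), and the one in RTX turned to -0.01 with equal library totals. Those of DNAJB1 ran the other way, with -0.12 [-0.19 to -0.05] in RTX, -0.04 [-0.12 to 0.03] in 5FdUR and 0.28 [0.19 to 0.36] in NT (mean 0.04, SE 0.12, limma adjusted p = 0.88).

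The ratios of the HSP90 genes differed most between the drug treatments and NT. HSP90AA1 (ENSG00000080824, chromosome 14, 102080742 to 102139686), the stress-inducible alpha form, had 11494400 and 11180700 scaled fragments in TS-RIP and RIPctr of RTX cells, 9877500 and 8409510 in TS-RIP and RIPctr of 5FdUR cells, and 5838810 and 10042400 in TS-RIP and RIPctr of NT cells. HSP90AB1 (ENSG00000096384, chromosome 6, 44246166 to 44253888), the constitutive beta form, had 8869700 and 6642060 in TS-RIP and RIPctr of RTX cells, 6657590 and 4937480 in TS-RIP and RIPctr of 5FdUR cells, and 5642880 and 8751420 in TS-RIP and RIPctr of NT cells. In NT cells both lay well below their control in TS-RIP, and in drug-treated cells both lay above it, except that HSP90AA1 in RTX lay below it (log2 ratio -0.07) once the library totals were set equal.

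The ratios of HSP90AA1 were 0.04 [0.03 to 0.05] in RTX, 0.23 [0.22 to 0.25] in 5FdUR and -0.78 [-0.80 to -0.77] in NT. HSP90AB1 had 0.42 [0.40 to 0.43], 0.43 [0.41 to 0.45] and -0.63 [-0.65 to -0.62] in RTX, 5FdUR and NT. With so wide a spread between pairs neither passed the test over the 3 treatments, with mean ratios of -0.17 (SE 0.29, limma adjusted p = 0.75) for HSP90AA1 and 0.07 (SE 0.27, limma adjusted p = 0.90) for HSP90AB1.

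The balance of the 2 HSP90 genes also differed between treatments. Per unit of transcript length, HSP90AA1 over HSP90AB1 was 1.03 [1.02 to 1.03] in TS-RIP and 1.33 [1.32 to 1.35] in RIPctr of RTX cells, 1.17 [1.16 to 1.19] in TS-RIP and 1.35 [1.33 to 1.37] in RIPctr of 5FdUR cells, and 0.82 [0.81 to 0.83] in TS-RIP and 0.91 [0.90 to 0.92] in RIPctr of NT cells. The alpha form was thus above the beta form in all 4 drug libraries and below it in both NT libraries, and in each treatment the quotient was smaller in TS-RIP than in RIPctr.

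HSPB1 and CHORDC1 were the members that passed the test of TS-RIP against RIPctr. HSPB1 (ENSG00000106211, chromosome 7, 76302673 to 76304295), the small heat shock protein HSP27, had 339197 and 238563 scaled fragments in TS-RIP and RIPctr of RTX cells, 413502 and 298568 in TS-RIP and RIPctr of 5FdUR cells, and 154449 and 135865 in TS-RIP and RIPctr of NT cells. TS-RIP was the higher library in 3 of 3 treatments. HSPB1 rose in TS-RIP, with ratios of 0.51 [0.43 to 0.59] in RTX, 0.47 [0.39 to 0.55] in 5FdUR and 0.18 [0.08 to 0.29] in NT (mean 0.39, SE 0.11, limma adjusted p = 0.0447).

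CHORDC1 (ENSG00000110172, chromosome 11, 90200429 to 90223077), a CHORD-domain protein that binds HSP90, had 180487 and 254741 scaled fragments in TS-RIP and RIPctr of RTX cells, 200821 and 234657 in TS-RIP and RIPctr of 5FdUR cells, and 68682 and 112385 in TS-RIP and RIPctr of NT cells. TS-RIP was the lower library in 3 of 3 treatments. CHORDC1 fell, with ratios of -0.50 [-0.59 to -0.41] in RTX, -0.22 [-0.32 to -0.13] in 5FdUR and -0.71 [-0.85 to -0.57] in NT (mean -0.48, SE 0.11, limma adjusted p = 0.0195).

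Among the 9 genes 1 was thus called higher and 1 lower in TS-RIP by limma with Benjamini-Hochberg adjustment over 13479 genes, where 2.33% of all genes were called higher and 6.17% lower. The median ratio of the members was -0.04, against -0.01 for all genes tested. Without the RTX pair neither gene passed, at mean ratios of 0.33 for HSPB1 (adjusted p = 0.513) and -0.47 for CHORDC1 (adjusted p = 0.187), and without the 5FdUR pair HSPB1 did not (0.35, adjusted p = 0.29). Calls over all genes were then also fewer, with 5 higher and 373 lower without the RTX pair and 83 and 630 without the 5FdUR pair. With each library scaled to the same total the adjusted p of HSPB1 was 0.0618, and all genes then gave 67 higher and 460 lower calls in place of 314 and 831.

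**Figure D2:**
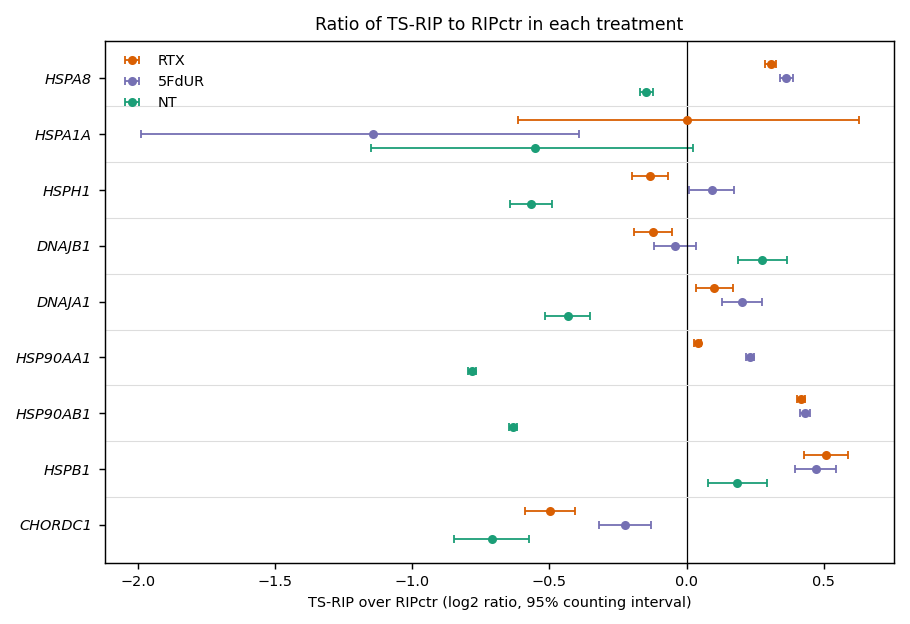
Log2 ratio of TS-RIP over RIPctr for each gene (rows), as points for RTX (orange), 5FdUR (purple) and NT (green) with 95% Clopper-Pearson counting intervals, from 1 library per fraction. NT lies farthest left for HSPA8, HSPH1, DNAJA1, HSP90AA1, HSP90AB1, HSPB1 and CHORDC1 and farthest right for DNAJB1, while HSPA1A has wide intervals from 23 to 54 fragments.

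Taken by treatment, the counting interval lay above 0 for 5 of the 9 genes in RTX, 6 in 5FdUR and 2 in NT, and below 0 for 3, 2 and 6. Over all genes tested it lay above 0 for 22%, 20% and 21.7% and below 0 for 21%, 19.8% and 20.4%. With equal library totals the ratios of HSP90AA1, DNAJA1 and HSPA1A in RTX were below 0 (-0.07, -0.01 and -0.11), and no other sign turned. The median ratio of the members was 0.04 in RTX, 0.20 in 5FdUR and -0.55 in NT. The medians of all genes tested were -0.004, -0.01 and 0.02. Counting intervals narrow with more fragments, so shares of all genes, here and below, are not matched to the members by level. In the 80 genes with a mean above 1000000, a group chosen after values were seen, the ratio was above 0 in 66 in RTX, 68 in 5FdUR and 25 in NT. Their medians were 0.31, 0.25 and -0.20. In the 1998 genes with means of 100000 to 500000 the medians were 0.11, 0.10 and -0.01. The ratio in RTX minus that in NT was above 0 for 8 of the 9 genes, with DNAJB1 as the exception, and its median was 0.45. Over all genes tested 47% were above 0 and the median was -0.03. For 5FdUR minus NT it was above 0 for 7 of the 9 (not for HSPA1A and DNAJB1), with a median of 0.51, against 46.5% above 0 and a median of -0.04 over all genes tested. With equal library totals the medians of the members were 0.25 and 0.33 and those of all genes -0.24 and -0.22, and single members moved with them: in RTX minus NT CHORDC1 was then at 0.01, HSPB1 at 0.12, HSPH1 at 0.23 and HSPA8 at 0.25. The same 8 and 7 members lay above 0. These comparisons share the NT libraries, and no test of the difference could be made with 1 library per group.

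The shift was widest for the HSP90 genes. HSP90AB1 differed by 1.05 [1.03 to 1.07] between RTX and NT and by 1.06 [1.04 to 1.09] between 5FdUR and NT, and HSP90AA1 by 0.82 [0.80 to 0.84] and 1.01 [0.99 to 1.03], here with Wald counting intervals. Of all genes tested, 97.8% and 97.6% had a smaller shift than HSP90AB1 in the RTX and the 5FdUR comparison. Other abundant RNAs moved the same way: in the 80 genes with a mean above 1000000 scaled fragments, a group chosen after values were seen that includes HSP90AA1, HSP90AB1 and HSPA8, the median shift was 0.47 for RTX and 0.39 for 5FdUR, and it was above 0 in 73 and 69 of them. In the 1998 genes with means of 100000 to 500000, where HSPH1, DNAJA1, DNAJB1, HSPB1 and CHORDC1 lie, it was 0.14 and 0.11. The part of abundance in the values of the heat shock genes was not tested.

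**Figure D3:**
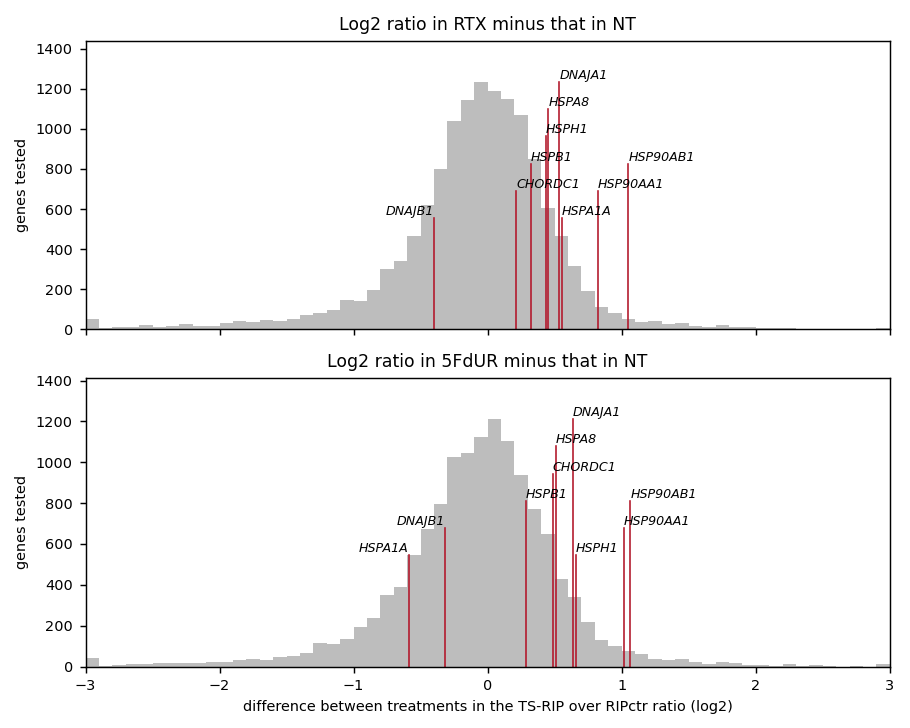
Histograms (bins of 0.1; values beyond 3 are in the end bins) of the difference between treatments in the log2 ratio of TS-RIP over RIPctr for all 13479 genes tested, RTX minus NT above and 5FdUR minus NT below, with the 9 heat shock genes as red lines whose heights have no meaning. HSP90AB1 and HSP90AA1 lie in the right tail of both, and DNAJB1 lies left of 0 in both.

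Drug-treated and NT cells were also compared within each fraction. Both fractions are RNA recovered on beads, and as no total RNA was used here, a change within a fraction is not shown to be one of the RNA level in the cell. CHORDC1 and HSPB1 were at least 1.5-fold higher in both fractions with both drugs, the rule used for a call by size. CHORDC1 in RTX over NT was 2.63-fold in TS-RIP and 2.27-fold in RIPctr, and in 5FdUR over NT 2.92-fold and 2.09-fold. HSPB1 was 2.20-fold and 1.76-fold in RTX over NT, and 2.68-fold and 2.197-fold in 5FdUR over NT. All 4 drug libraries lay above both NT libraries for each of these genes, a pattern not counted over all genes, here or below. Thus 2 of 9 members were called higher and 0 lower in RTX over NT, where 14.2% and 13.7% of 12425 genes were, and 2 of 9 higher and 0 lower in 5FdUR over NT, where 20.3% and 18.3% of 12502 genes were. These shares of all genes are of the same order as the share of members, and no replicate was available for these counts.

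DNAJB1 came close to a call, with 1.497-fold in TS-RIP and 1.97-fold in RIPctr in RTX over NT, and 1.40-fold and 1.74-fold in 5FdUR over NT. Its 4 drug libraries, too, were above both NT libraries, as were those of DNAJA1. DNAJA1 was 2.03-fold in TS-RIP and 1.41-fold in RIPctr in RTX over NT, and 1.93-fold and 1.24-fold in 5FdUR over NT. With libraries scaled to the same total DNAJA1 was called as well in RTX over NT.

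For the most abundant members the answer differed between fractions. HSP90AA1 in RTX over NT was 1.97-fold in TS-RIP and 1.11-fold in RIPctr, and in 5FdUR over NT 1.69-fold and 0.837-fold. HSP90AB1 was 1.57-fold in TS-RIP and 0.759-fold in RIPctr with RTX, and 1.18-fold and 0.564-fold with 5FdUR. The TS-RIP libraries of drug-treated cells were thus above that of NT cells, and the RIPctr libraries of HSP90AB1 below. HSPA8 was 1.66-fold and 1.21-fold in TS-RIP and RIPctr in RTX over NT, and 1.28-fold and 0.897-fold in 5FdUR over NT.

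HSPH1 was 1.74-fold and 1.29-fold in TS-RIP and RIPctr in RTX over NT, and 1.35-fold and 0.858-fold in 5FdUR over NT. HSPA1A was 1.22-fold and 0.832-fold in RTX over NT, with intervals that span 0, and 0.561-fold and 0.844-fold in 5FdUR over NT. In RIPctr alone the counting interval of 5FdUR over NT lay above 0 for 4 members and below 0 for 4 (33.3% and 31.3% of all genes tested), whereas in TS-RIP it lay above 0 for 8 (36.8%). The median log2 change of the 9 members was 0.80 in TS-RIP and 0.37 in RIPctr for RTX over NT, and 0.49 and -0.16 for 5FdUR over NT. Medians of all genes in these comparisons were between -0.01 and 0.02.

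**Figure D4:**
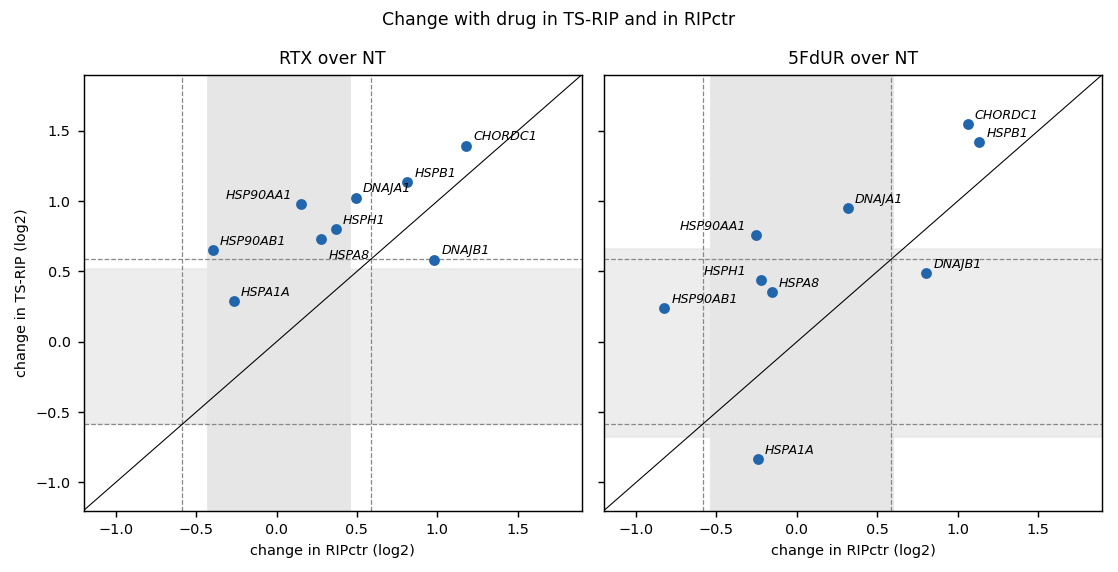
Log2 change in TS-RIP (y axis) against that in RIPctr (x axis) for RTX over NT (left) and 5FdUR over NT (right), 1 library per group, with dashed lines at 1.5-fold, grey bands for the middle 50% of all genes and a diagonal of equal change. CHORDC1 and HSPB1 lie beyond 1.5-fold on both axes in both panels. All genes lie above the diagonal except DNAJB1 in both panels and HSPA1A in 5FdUR over NT.

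By the size of the log2 change, RTX and 5FdUR were closer to each other than either was to NT for 6 of the 9 members in TS-RIP and for 5 in RIPctr. The exceptions were HSPA8, HSP90AB1 and HSPA1A in TS-RIP and HSPA8, HSPH1, HSP90AA1 and HSP90AB1 in RIPctr. How many of all genes had this pattern was not counted, but their log2 changes were also narrowest between the drugs. In TS-RIP the lower and upper quartiles of all genes were -0.25 and 0.25 for 5FdUR over RTX. They were -0.59 and 0.52 for RTX over NT and -0.67 and 0.66 for 5FdUR over NT. In RIPctr these pairs of quartiles were -0.23 and 0.26, -0.43 and 0.46, and -0.54 and 0.60. No member was called in 5FdUR over RTX (0 of 9 higher and 0 lower, where 4.13% and 2.74% of 12487 genes were). HSPA8, HSPH1, HSP90AA1, HSP90AB1, DNAJB1 and DNAJA1 were lower with 5FdUR than with RTX in both fractions, with log2 changes between -0.41 and -0.07 in TS-RIP and between -0.59 and -0.18 in RIPctr, and each of these counting intervals lay below 0. In TS-RIP the interval lay below 0 for 7 members and above 0 for 2 (23.2% and 21.7% of all genes tested). In RIPctr it lay below 0 for 7 and above 0 for 1 (19.6% and 19.1%). HSPH1 in RIPctr was at 0.665-fold [log2 -0.67 to -0.51]. HSPB1 was higher with 5FdUR, at 1.22-fold in TS-RIP and 1.25-fold in RIPctr, and CHORDC1 was at 1.11-fold in TS-RIP and 0.921-fold in RIPctr. HSPA1A, with its few fragments, was at 0.459-fold in TS-RIP and 1.01-fold in RIPctr. As the drugs were given at different doses, these are values side by side.

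The 9 genes did not share a single profile. Over the 6 libraries, which share lysates in pairs, the Pearson r between centred log2 profiles of 2 members was between -0.56 (HSPA1A and HSPB1) and 0.94 (HSPH1 and HSP90AA1). By Euclidean distance among 10454 genes with a mean above 5000, HSP90AA1 was in place 15 of the genes nearest to HSPH1, and HSPH1 in place 16 for HSP90AA1, while no other member had another member among its 100 nearest. The nearest gene outside the group was TUBB for HSPA8 (r = 0.98), SMC6 for HSPH1 (r = 0.99), RSL1D1 for HSP90AA1 (r = 0.99), NOP2 for HSP90AB1 (r = 0.99), CCNA2 for DNAJB1 (r = 0.99), FCF1 for DNAJA1 (r = 0.997), PXDN for HSPB1 (r = 0.997), YAF2 for CHORDC1 (r = 0.99) and ATP9B for HSPA1A (r = 0.97). With 10454 genes to choose from, such values of r describe these 6 libraries.

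HSF1, the main activator of these genes, was called higher with both drugs by size. It had 246207 and 193887 scaled fragments in TS-RIP and RIPctr of RTX cells, 238593 and 237655 in TS-RIP and RIPctr of 5FdUR cells, and 130139 and 121845 in TS-RIP and RIPctr of NT cells, and all 4 drug libraries were above both NT libraries. HSF2, a second factor that binds the same elements, had 24572 and 25014 in TS-RIP and RIPctr of RTX cells, 18139 and 20849 in TS-RIP and RIPctr of 5FdUR cells, and 17086 and 29293 in TS-RIP and RIPctr of NT cells, and was not called. Over the 3 pairs the mean ratios were 0.15 for HSF1 and -0.33 for HSF2 (limma adjusted p = 0.42 and 0.18).

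The wider network around the cytosolic chaperones was taken from lists of 60 genes in 8 classes, of which 54 were tested between TS-RIP and RIPctr. None rose and 2 fell by limma, where 2.33% of all genes were called higher and 6.17% lower. The 2 were DNAJB4, a J-domain protein (mean ratio -0.42, adjusted p = 0.04, named after its values were seen), and BAG4, which regulates HSP70 (mean ratio -0.44, adjusted p = 0.03). At an unadjusted p under 0.05 in limma 8 were higher, edgeR called 1 higher (PFDN2) and 2 lower, and DESeq2 1 higher (BAG6) and 0 lower, both of them chosen for naming with values known. Over the 54 genes the median ratio was 0.08. By size, 14 of 53 were higher and 0 lower in RTX over NT (14.2% and 13.7% of all genes), with median log2 changes of 0.65 in TS-RIP and 0.31 in RIPctr, and 16 were higher and 1 lower in 5FdUR over NT (20.3% and 18.3% of all genes), with medians of 0.53 and 0.37. In 5FdUR over RTX 3 were higher and 0 lower (4.13% and 2.74% of all genes). The lists are not limited to cytosolic chaperones: HSPA13 and HSPB11, described below, were called higher with both drugs and are counted here.

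Several of these genes took part in steps next to those of the members. The HSP90 cochaperone PTGES3 (p23), which stabilises the closed form of HSP90, had log2 changes of 1.20 in TS-RIP and 0.86 in RIPctr for RTX over NT and 1.05 and 0.61 for 5FdUR over NT. CDC37L1, a relative of the kinase cochaperone CDC37, was higher with both drugs, and the cyclophilin PPID was called higher in RTX over NT (1.19 in TS-RIP and 0.73 in RIPctr). UNC45A, a myosin chaperone that binds HSP90, was the only gene of these classes called lower in 5FdUR over NT (-1.07 in TS-RIP and -0.97 in RIPctr).

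Of the other HSP70 and HSP110 genes HSPA4L, an HSP110 form, and HSPA13, a microsomal HSP70 relative, were called higher with both drugs. Among J-domain genes DNAJA4 and DNAJC21 were higher with both, and DNAJB2 and DNAJB5 with 5FdUR, where DNAJB5 reached 1.42 in TS-RIP and 1.46 in RIPctr. BAG2, an exchange factor of HSP70, was higher with both drugs (0.98 and 0.70 in TS-RIP and RIPctr for RTX over NT). Of the small heat shock genes, HSPB8 had log2 changes of 2.26 in TS-RIP and 2.12 in RIPctr for 5FdUR over NT from 20 to 139 fragments per library, and HSPB11, which is a protein of intraflagellar transport, had 1.86 and 1.73.

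Prefoldin, which hands nascent actin and tubulin to the TRiC chaperonin, had 3 of 6 genes called higher in RTX over NT and 4 of 6 in 5FdUR over NT, where 14.2% and 20.3% of all genes were. VBP1 was the widest, with 1.56 in TS-RIP and 1.45 in RIPctr for RTX over NT, and PFDN1, PFDN4 and, with 5FdUR, PFDN5 were called as well. None of the 8 TRiC genes was called in either. Of 7 mitochondrial chaperones LONP1, a protease, was called lower in 5FdUR over NT (-0.75 in TS-RIP and -0.97 in RIPctr), and no other was called.

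The chaperones of the ER, which answer to the unfolded protein response and not to HSF1, were set beside the cytosolic genes. Of 14 ER genes 11 were called higher with RTX and 11 with 5FdUR by size, against 2 of the 9 cytosolic members with each drug and 14.2% and 20.3% of all genes, a difference that was not tested. CALR, a lectin chaperone, had log2 changes of 1.72 in TS-RIP and 1.67 in RIPctr for RTX over NT, HSPA5, the HSP70 of the ER, 1.51 and 1.42, CANX 1.52 and 1.45, and MANF 1.38 and 1.85. The medians of the ER genes were alike in both fractions, with 1.07 in TS-RIP and 1.06 in RIPctr for RTX over NT and 0.98 and 1.04 for 5FdUR over NT, whereas those of the cytosolic members differed between the fractions as given above. Single ER genes did differ, and the change in TS-RIP minus that in RIPctr was between -0.88 (DNAJB9, read at 35 to 64 fragments) and 0.29 (HSP90B1) for RTX over NT. HSP90B1, the HSP90 of the ER, had 1.44 and 1.15 for RTX over NT.

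The calls by size were set beside the promoter elements, without a test. Of the 5 members with an element, CHORDC1 was called higher with both drugs and HSPA8, HSP90AA1, HSP90AB1 and DNAJA1 were not. HSPB1, without a match, was also called higher, and no member was called lower with either drug. In the rest of the table, 40 genes with an element were measured in RTX over NT, with median log2 changes of 0.03 in TS-RIP and 0.11 in RIPctr, against -0.01 for all genes in each fraction, and 7 of them were called higher and 4 lower, where 14.2% and 13.7% of all genes were. In 5FdUR over NT there were 41 such genes, with medians of 0.13 in TS-RIP and 0.09 in RIPctr, against 0.02 for all genes in each fraction, and 9 were called higher and 4 lower (20.3% and 18.3% of all genes).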

How the data were processed

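Per the labels and methods, the authors used fastp for trimming, BWA to take out rRNA reads and HISAT2 in strand-aware mode for alignment to GRCh38. They kept reads on the core chromosomes with a mapping quality of at least 1, which the methods call uniquely mapped. GENCODE 34 genes were quantified with the Cufflinks suite, with multi-read correction, geometric scaling of libraries and no length correction. Versions are not given in the sources used here. The authors deposited signal values that the study calls FPKM. In the deposited signal, each value below 200 fragments was a whole multiple of 1 step per library within 0.05 fragments (100% of them), so values were read as scaled fragment counts, and dividing by the step gave fragments. A value of 500 is 3.67 to 5.88 fragments. The authors' subsamples of these libraries served only as an alternative. A further 25 value columns were not used.

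TS-RIP was tested against RIPctr with limma 3.58.1 under R 4.3.3, using lmFit and eBayes (trend on) for log2(value + 100). Treatment was the block, genes needed a mean above 500, and p-values are two-sided with a Benjamini-Hochberg threshold of 0.05. SE is the moderated standard error. With 3 pairs from 1 culture per treatment, p-values rest on the spread between treatments, which eBayes pools with that of genes of like level. A p-value is thus not set by a gene's own 3 ratios alone, whose SD was 0.243 for CHORDC1 and 0.176 for HSPB1. Calls by size needed 1.5-fold in the same direction in both fractions and a mean of the 4 libraries above 1000. edgeR 4.0.16 and DESeq2 1.42.0 on the recovered fragments, other pseudocounts, filters and scalings, and leaving out each pair were alternatives. Members and lists were chosen with earlier results of these data known. Named from the lists were genes past the test or the size rule, at most 4 a list by size of change, and HSF1 and HSF2. Coordinates are GRCh38, with transcripts from GENCODE 44.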

Additional observations from a re-analysis of the deposited data

Results flagged for a closer look

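For 6 members the ratio of TS-RIP over RIPctr had opposite signs in different treatments, with counting intervals that excluded 0 on both sides. How many of all genes met this criterion was not counted, and the intervals cover counting error only. The differences in log2 ratio between RTX and NT were 1.05 for HSP90AB1, 0.82 for HSP90AA1, 0.53 for DNAJA1, 0.45 for HSPA8 and -0.40 for DNAJB1. Between 5FdUR and NT they were 1.06 for HSP90AB1, 1.01 for HSP90AA1, 0.66 for HSPH1, 0.64 for DNAJA1 and 0.51 for HSPA8. Between 5FdUR and RTX only HSPH1 met this criterion, with 0.22. None of these differences was tested, since each treatment had 1 library per fraction. With each library scaled to the same total, the ratios of HSP90AA1 and DNAJA1 in RTX turned to -0.07 and -0.01, so that their signs no longer opposed those in NT, while the differences from NT were 0.62 and 0.33. That of HSPA8 was then 0.25 in RTX and 0.33 in 5FdUR, and that of DNAJB1 in RTX was -0.60, where the medians of all genes were -0.24 for RTX and -0.22 for 5FdUR.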

How the results depend on the processing

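The 1 member higher in TS-RIP (HSPB1) was lost, giving 0, with a pseudocount of 10 (adjusted p = 0.0521), a mean above 5000 (0.0537), equal library totals (0.0618), the authors' subsamples (0.0826), eBayes without trend (0.215) and no treatment block. The 1 lower member (CHORDC1) was lost, giving 0, with eBayes without trend (0.202) and no treatment block. Leaving out 1 pair gave 0 to 3 higher and 0 to 1 lower: without the NT pair HSPB1, HSPA8 (0.34) and HSP90AB1 (0.42) passed. Both genes passed with limma at a pseudocount of 1000, without the filter and with TMM scaling, and with edgeR and DESeq2. With 1 pair left out, mean ratios that had not passed changed sign for DNAJA1 (-0.17 to 0.15), DNAJB1 (-0.082 to 0.12), HSP90AA1 (-0.37 to 0.14) and HSP90AB1 (-0.11 to 0.42). Over all genes, 314 higher and 831 lower became 276 and 419 with DESeq2, 248 and 444 with a mean above 5000, 454 and 1414 without the filter, 139 and 475 in the subsamples, 67 and 460 with equal totals, 0 and 215 without trend (2683 genes at unadjusted p under 0.05), 0 and 47 without the block (736), 5 and 373, 83 and 630 and 1864 and 2151 without the RTX, 5FdUR and NT pair. By size, a 2-fold rule left 1 member (CHORDC1) higher in RTX over NT, as were 662 of 12425 genes. In TS-RIP alone 7 were higher in RTX over NT, where 2769 of 12425 genes were higher and 3127 lower. In 5FdUR over NT 4 were higher and 1 lower in TS-RIP alone, where 3449 and 3485 of 12502 genes were. In RIPctr alone 3 were higher and 1 (HSP90AB1) lower in 5FdUR over NT, where 3187 and 2884 of 12502 genes were. In 5FdUR over RTX 1 member was lower in RIPctr alone (HSPH1) and 1 in TS-RIP alone (HSPA1A). Of all 12487 genes, 781 and 980 were lower in these fractions. Equal totals moved the median ratio of all genes to -0.12 in RTX, -0.10 in 5FdUR and 0.11 in NT. Causes of these changes were not tested. The pairs of the test were the treatments, and no block by replicate number could be fitted because the labels number no replicates. Depth limits HSPA1A, read at 23 to 54 fragments.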
